A study of Abies pinsapo with 12 samples.

Results

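The transcripts described here are the 200 well-expressed needle transcripts of Spanish fir (Abies pinsapo) whose levels differed least from tree to tree. They were chosen from the 76481 assembled transcripts of the count table. Counts were turned into CPM (the count divided by the library total, times 1000000), and the 200 transcripts with the highest mean CPM were set aside. Of the others, 12268 reached a mean of 10 CPM over the 12 libraries and formed the candidates. The 200 candidates with the smallest standard deviation (SD) of log2(CPM + 0.5) over the 12 libraries were taken, which left 12068 other candidates. The small spread of these transcripts is therefore what chose them and is given as a description, with no test.

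Needles were sampled in spring from adult trees with bluish or green needles that grow interspersed in the same stand of the Sierra de las Nieves National Park. RNA was sequenced from 6 bluish trees and 6 green trees, with 1 library per tree and no treatment, so that the trees are the replicates and needle colour is the comparison. The study's sample list gives the trees of both colours the same age, and their genotypes were not given in the sources used here. Each sample is a bulk extract, in which fewer cells of a type and less RNA per cell cannot be told apart.

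Transcripts that keep a steady level serve as internal references, since the amount of any other transcript is usually stated relative to them. In plants, the classical choices encode parts of the cytoskeleton, the ubiquitin system, translation elongation or glycolysis, and their steadiness is known to depend on the tissue and the conditions. In RNA-seq, a steady share of the reads is not the same as a steady number of molecules per cell, because every share depends on all other transcripts in the library.

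The library totals lay between 64978939 counts in green 6 and 91973481 counts in green 2, with a median of 74852147. Both conifer RuBisCO small subunit transcripts used to check for needle tissue were above 0 in all 12 libraries, at 7.61 to 35.4 CPM for ap_2598 and 5.56 to 23.8 CPM for ap_81338. Transcripts whose best protein match came from another organism were also present. The 19 with a green alga match summed to between 40.8 CPM in bluish 3 and 396 CPM in green 4. The 58 with a match in the hornbeam Carpinus fangiana summed to between 45.2 CPM in bluish 2 and 561 CPM in green 4. The 31 with a match in Anthurium amnicola summed to between 83.2 CPM in bluish 2 and 236 CPM in green 5. All these lists came from a table sorted by the result of the study and are not independent of it. The protein matches used here covered none of the 200 stable transcripts, so whether any of them has such a match was not examined, and the part of such sequences in any result was not tested.

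The 200 stable transcripts had SDs between 0.0430 and 0.0809 on the log2 scale, with a median of 0.0742. The median of the other candidates was 0.189. In CPM, the tree with the highest level exceeded the tree with the lowest by 1.10 to 1.26 times, with a median of 1.18, whereas the median ratio of the other candidates was 1.56. For 142 of the 200, every tree lay within 20% of the lowest one, as did 54 of the 12068 others. The 200 candidates with the most variable levels stood at the other end, with a median SD of 1.26 and a median ratio of 21.0 between the highest and the lowest tree. The 200 most abundant transcripts, which the choice set aside, had a median SD of 0.163, and 8 of them had an SD no larger than that of the least steady of the stable transcripts.

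**Figure D1:**
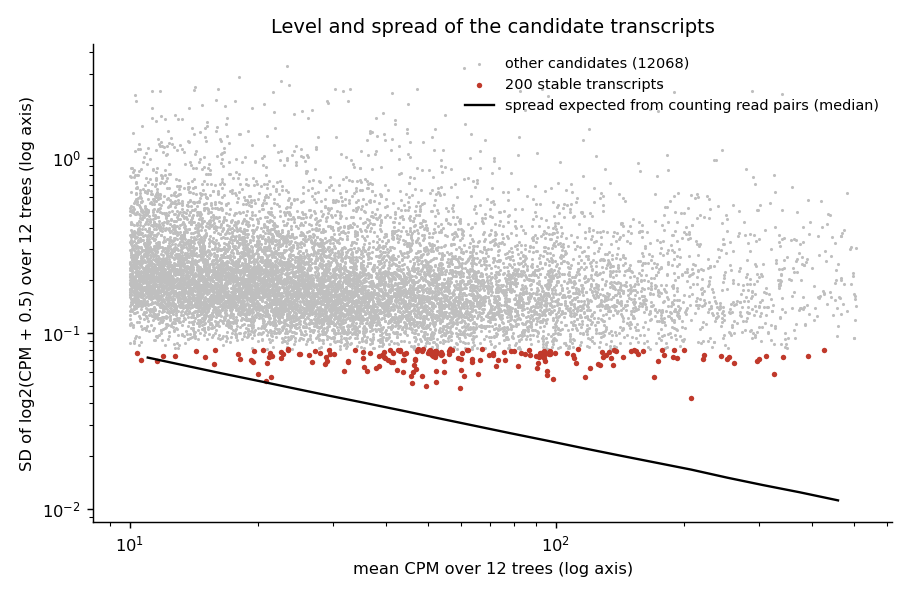
Mean CPM over the 12 trees (x axis, log scale) against the SD of log2(CPM + 0.5) over the same trees (y axis, log scale) for the 200 stable transcripts (red) and the 12068 other candidates (grey). The black line is the median spread that the counting of read pairs alone would give. The red points form the lower edge of the cloud at SDs of 0.0430 to 0.0809, and they meet the black line only at low levels.

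Their mean levels ran from 10.4 to 426 CPM with a median of 54.0 CPM, above the median of 27.3 CPM of the other candidates. Transcript lengths were not used here, so a CPM value is a share of the reads and does not rank transcripts by number of molecules. Stable transcripts made up 0.348% of the candidates between 10 and 20 CPM (15 of 4310) and 1.49% of those between 20 and 50 CPM (68 of 4573). The share was 3.61% between 50 and 100 CPM (72 of 1997) and 3.24% from 100 CPM upwards (45 of 1388). The choice therefore took fewer transcripts from the lowest levels, where the spread from counting is widest.

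The counting of reads sets a floor under the SD. Most low values in the table were even (76.0% of the values from 1 to 29), so that a read pair appears to have been counted as 2, and the floor was computed for pairs. The larger counts of the 200, from 598 to 40261, were even in 49.4% of cases, and a floor for single reads would be lower (median ratio of the SD to it 3.32). For the 200 it had a median of 0.0321. The measured SD was 0.976 to 7.01 times this floor, with a median of 2.35, against a median of 4.43 for the other candidates. It was within 1.5 times the floor for 27 stable transcripts and within 2 times for 74, whereas 55 exceeded it by more than 3 times. The SDs of 2 stable transcripts were below the floor for pairs, and none was below that for single reads (lowest ratio 1.38). For the transcripts near the floor, a smaller difference between trees was not detectable at this depth.

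The transcript with the smallest spread was ap_3178, with an SD of 0.0430. It measured 199 CPM in the lowest bluish tree, a median of 206 CPM, and 213 CPM in the highest. In green trees its lowest, median and highest values were 198, 209 and 219 CPM. The bluish trees lay inside the range of the green trees, with green 4 at the bottom and green 5 at the top. The counts behind these values ran from 13174 to 18938, so that the SD was still 2.62 times the counting floor. The next smallest SD of the list was 0.0486.

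That second transcript, ap_6606, lay between 57.7 and 62.3 CPM in bluish trees (median 60.1) and between 56.0 and 62.9 CPM in green trees (median 59.2). The green trees enclosed the bluish ones. Its SD was 1.59 times the floor. The third, ap_7470 (SD 0.0497), was between 47.9 and 49.995 CPM in the bluish trees (median 49.4), a narrower band than the 46.5 to 53.4 CPM of the green trees (median 50.4). Green 2 was its lowest tree and green 5 its highest. In this transcript the bluish trees all fell inside the green range.

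Of the next members in the order of SD, ap_4171 spanned 43.3 to 47.6 CPM in bluish trees, and 44.4 to 49.3 CPM in the green ones. The transcript ap_71094 spanned 48.4 to 54.4 CPM in bluish trees, and 49.9 to 54.4 CPM in the green ones. The colours overlapped in both, and the highest tree of ap_4171 was a green one. At a lower level, ap_22102 spanned 19.7 to 21.8 CPM in bluish trees, and 19.8 to 21.7 CPM in the green ones, and its SD was 1.03 times the counting floor. The transcript ap_4377 was similar in level, at 20.1 to 22.6 CPM in bluish trees, and 20.6 to 22.7 CPM in the green ones, with an SD 1.10 times the floor. Relative to a floor for single reads, the ratios were 1.46 for ap_22102 and 1.56 for ap_4377. Of the 3 that complete the list of 10, ap_7317 spanned 91.8 to 101 CPM in bluish and 95.7 to 105 CPM in green trees. The transcript ap_2642 lay between 165 and 183 CPM in bluish trees, and between 158 and 175 CPM in the green ones. The transcript ap_4784 lay between 111 and 123 CPM in bluish trees, and between 113 and 126 CPM in the green ones. No colour stood apart from the other in any of the 10. Colours without overlap were rare in general, at 39 of the 23352 transcripts that reached 2 CPM in 2 or more libraries (0.167%). The overlap in the 10 is therefore a description only.

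**Figure D2:**
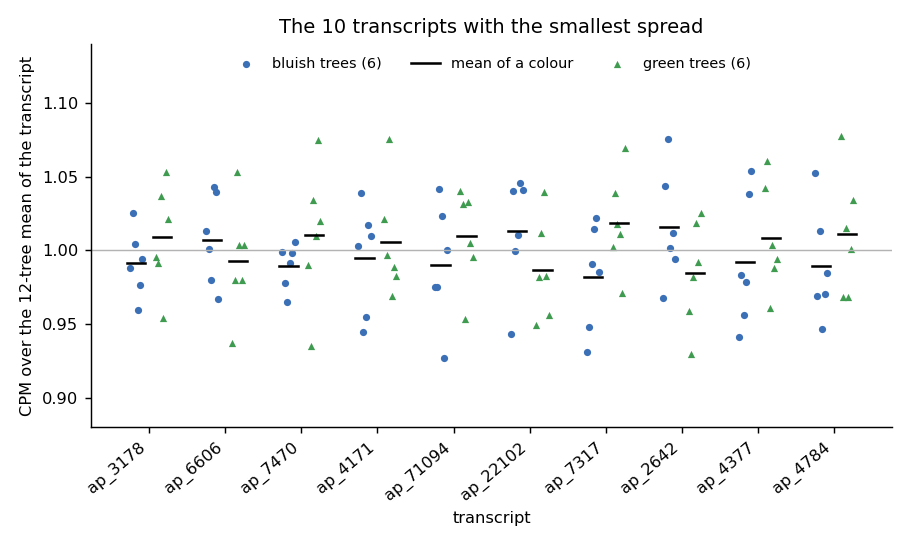
CPM of each tree divided by the 12-tree mean of the transcript (y axis, no unit) for the 10 transcripts with the smallest SD (x axis), with bluish trees as circles, green trees as triangles and the mean of each colour as a bar. The trees of each transcript lie close to 1, and bluish and green trees overlap in every transcript.

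The 5 stable transcripts with the highest read share had larger SDs relative to counting. For ap_2719, the lowest, median and highest bluish trees measured 390, 435 and 460 CPM, and the green trees 389, 423 and 446 CPM. Its SD of 0.0802 was 7.01 times the floor, the highest multiple among the 200. For ap_2319 the bluish trees ran from 371 to 400 CPM with a median of 382 CPM, and the green trees from 368 to 438 CPM with a median of 396 CPM, green 2 being the highest tree. The values of ap_2494 were 330 to 350 CPM in bluish and 308 to 364 CPM in green trees. In both transcripts the green trees were the more widely spread. The range of ap_4376 was 288 to 324 CPM in bluish and 296 to 340 CPM in green trees, which overlapped for most of their width. The remaining one, ap_7046, held 306 to 337 CPM in bluish and 311 to 357 CPM in green trees, with bluish 2 well below the other bluish trees and green 6 well above the other green trees.

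At the limit of the choice, the last transcripts inside were ap_95 (SD 0.0808) and ap_2643 (SD 0.0809), and the first outside were ap_2578 (SD 0.0809) and ap_3971 (SD 0.0810). The members just inside the limit are therefore not different in kind from the candidates just outside it. The transcript ap_95 was held at the limit by 1 tree, green 2, with 41.6 CPM against 48.7 to 50.7 CPM in the other green trees and 47.2 to 51.8 CPM in the bluish trees.

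Most of the 200 carried no annotation in the tables used here. The part of the study's annotation used here described none of them by protein match (0 of 200, against 291 of the 12268 candidates and 1714 transcripts in all) and placed 8 under Gene Ontology (GO) terms, so the 200 cannot be described by pathway, and no list of classical reference genes was matched to them. The GO tables used here list 1434 transcripts, 364 of them candidates, and were made for the comparison of bluish and green trees. The protein matches were part of a table sorted by the result of the study. The 0 of 200 is therefore not read as a result about the stable transcripts. Sequences of the transcripts were not used here.

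Of the 8 annotated transcripts, ap_73252 (SD 0.0570) was listed under hydrolase activity and nucleotide binding, terms shared by enzymes that cleave bonds with water and by proteins that bind molecules such as ATP or GTP. It measured 56.5 to 61.7 CPM in bluish and 57.5 to 64.2 CPM in green trees. The transcript ap_9878 (SD 0.0572), listed under the cellular response to organic substance, held 46.7 to 50.4 CPM in bluish and 45.9 to 53.1 CPM in green trees. Green 2 was the lowest green tree in both. The transcript ap_8438, under the breakdown of organic nitrogen compounds, lay at 41.4 to 47.1 CPM in bluish and 41.4 to 47.4 CPM in green trees. The transcript ap_17676, under signal transduction, lay at 42.4 to 49.8 CPM in bluish and 45.4 to 51.1 CPM in green trees.

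Terms for the modification of proteins held a pair of the 200. One of them, ap_6830, also listed under peptidase activity, measured 56.9 to 61.6 CPM in bluish and 53.1 to 62.6 CPM in green trees. The other, ap_15049, measured 138 to 144 CPM in bluish trees, a narrow band inside the 135 to 159 CPM of the green trees. The last annotated transcripts were ap_6935, under chromosome organization and the cellular response to stress, and ap_77398, under organelle organization. Their bluish and green trees ran from 52.0 to 59.7 CPM and from 53.8 to 59.9 CPM for ap_6935. For ap_77398 the ranges were 36.7 to 45.3 CPM and 38.1 to 41.2 CPM, the bluish trees being the more widely spread. All 8 had overlapping colours, as did nearly all transcripts of the data, so this is not read as a result.

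The stable transcripts together took between 1.60% of the counts in green 2 and 1.66% in green 4. Their summed level was 16313 ± 148 CPM for the bluish trees and 16379 ± 204 CPM for the green ones (SD, n = 6 each). The ranges of the colours overlapped, from 16128 to 16532 CPM and from 16011 to 16559 CPM. Green 2 had the lowest median deviation from the 12-tree means of the transcripts, at -0.04 on the log2 scale, and green 4 the highest, at 0.02. Green 2 was also the lowest tree for 41 of the 200, followed by green 5 with 25 and bluish 1 with 23. The highest tree was bluish 2 for 29 transcripts, green 3 for 27 and green 6 for 25.

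Green 2 was the library with the largest total, and its 200 most abundant transcripts took 35.3% of its counts, the highest share of the 12 libraries. Green 4 had the lowest such share, 32.0%, together with the highest sums of the green alga and Carpinus lists. The part of these differences in the levels of the stable transcripts was not tested. The TMM factors (edgeR's correction of the library sizes) lay between 0.958 and 1.04, and factors made from the summed counts of the 200 lay between 0.980 and 1.01.

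**Figure D3:**
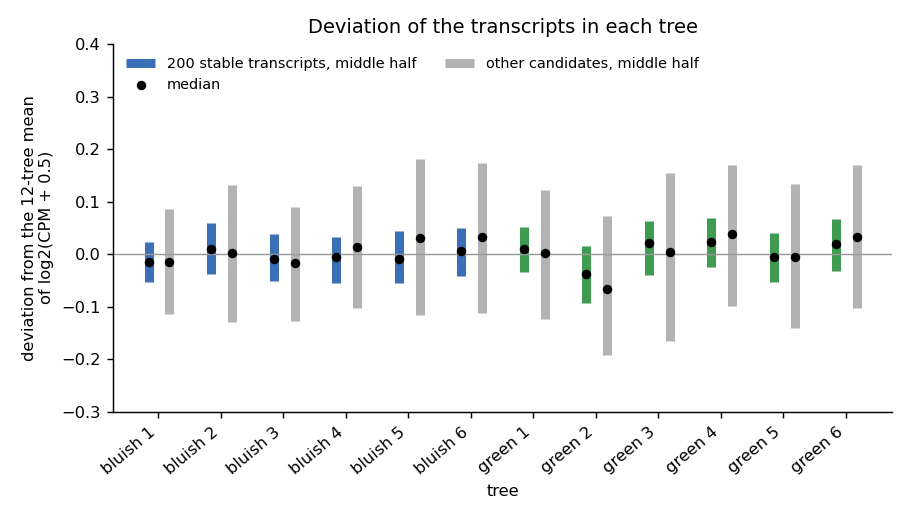
Deviation of log2(CPM + 0.5) from the 12-tree mean of each transcript (y axis, log2 units) in every tree (x axis), as the median (dot) and interquartile range (bar) of the 200 stable transcripts (blue in bluish trees, green in green trees) and of the other candidates (grey). Green 2 has the lowest median of the stable transcripts, -0.04, and green 4 the highest, 0.02.

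Averaging transcripts narrowed the spread. The mean log2 level of the 10 transcripts with the smallest SD had an SD of 0.0126 over the trees, and its highest tree exceeded its lowest by 1.03 times. For the 2 with the smallest SD, the mean had an SD of 0.0302 and a ratio of 1.08. The mean of all 200 had an SD of 0.0149 and a ratio of 1.04, so it varied no less than the mean of the first 10. The trees were those the choice used, and these values are a description.

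Transcripts were also compared with one another without the library totals, by the SD over trees of the log2 ratio of each stable transcript to each other one. The mean of this SD ran from 0.0825 to 0.110 over the 200, with a median of 0.0999. For every 40th of the other candidates (302 transcripts), measured against the same 200, the median was 0.201, and 3 of the 302 fell at or below the highest value of the stable transcripts. The smallest value again belonged to ap_3178, with 0.0825, followed by ap_7470 with 0.0830. The same trees and SDs chose the 200, so the smaller ratio spread follows from the choice and is a description only. Of the 10 smallest by this measure, 6 were also among the 10 smallest by SD.

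Pairs of stable transcripts had a low median correlation from tree to tree, and so did pairs of the 200 most variable candidates. Over the 12 trees, the median Pearson correlation between stable pairs was 0.0418, and the 5th and 95th percentiles were -0.477 and 0.537. For the 200 most variable candidates the median was -0.00544, and these percentiles were -0.503 and 0.572. An absolute correlation above 0.8 was reached by 52 of 19900 pairs, against 251 of 19900 pairs among the 200 most variable candidates. The first principal component held 15.6% of the variance in the former and 19.6% in the latter. All points share the same 12 libraries and their totals, and no test was made. All transcripts that reached 2 CPM in 2 or more libraries were searched for the pattern most like that of ap_3178. The highest correlations were those of ap_11793 (r = 0.86), ap_168 (r = 0.85) and ap_20376 (r = 0.84), over 12 libraries. As the extremes of this search, they are not read as a result. These transcripts were weakly expressed, with means of 1.61 to 2.69 CPM, and were not among the 200.

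The comparison of needle colour was made for all 23352 transcripts that reached 2 CPM in 2 or more libraries, with edgeR's quasi-likelihood test. DE transcripts were those with a Benjamini-Hochberg adjusted p (FDR) under 0.05 and an absolute logFC (log2 of bluish over green) above 1. All 200 stable transcripts were tested and 0 were DE, against 1 of 23352 overall (0.00428%). DESeq2 also called 0 of the 200, against 22 overall. An unadjusted p under 0.05 was reached by 0 of the 200 and by 1478 of all tested (6.33%). None of the 200 had colours that did not overlap (0 of 200), against 39 of all tested (0.167%). A small spread over all trees leaves little room for a colour difference, so nothing about the 200 is read from these counts.

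The logFC of the stable transcripts lay between -0.11 and 0.11, with a median of -0.01, against 0.00022 for all tested. By sign, 82 were higher and 118 lower in bluish trees. They share the same libraries, so this split is a description and no lean towards a colour is read from it. The median absolute logFC was 0.03, against 0.11 for all tested. The lowest FDR among the 200 was 0.790 (edgeR quasi-likelihood test, Benjamini-Hochberg). Standard errors from the fit, which shares its estimate of the spread with all other transcripts, were 0.0498 to 0.0772 with a median of 0.0595. Those from the trees of each transcript alone were smaller, with a median of 0.0424. They used CPM without TMM factors, the values whose small SD chose the 200, so the smaller size is not read as a result. Colour held a median of 4.31% of the sum of squares of the log2 levels of the 200, against 5.45% for the other candidates. The largest shares among the 200 were those of ap_4154 (50.4%) and ap_74180 (50.2%), and the largest among the other candidates was 75.2%. As the extremes of 200 values, these shares are not read as an effect of colour.

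The first of these, ap_4154, had the lowest logFC of the 200, -0.11 ± 0.05 (SE). Its bluish trees measured 69.8 CPM at the lowest, 71.8 CPM in the median and 77.0 CPM at the highest, and its green trees 72.2, 78.4 and 83.2 CPM. Green 2 was the only green tree inside the bluish range, and the other green trees lay above all bluish trees. The unadjusted p of 0.0609 was the lowest among the 200, and the FDR was 0.790 (edgeR quasi-likelihood test, Benjamini-Hochberg). The next lowest were ap_24179, with 47.1 to 50.2 CPM in bluish and 47.0 to 55.1 CPM in green trees, and ap_157, with 19.9 to 21.8 CPM and 21.0 to 24.0 CPM. Their logFC was -0.10 in both cases. Green 2 was the only green tree of ap_24179 that did not lie above all bluish trees, and it was the highest green tree of ap_157.

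The highest logFC, 0.11 ± 0.06 (SE), belonged to ap_74180. Its lowest, median and highest bluish trees measured 59.4, 63.9 and 68.6 CPM, and its green trees 58.0, 59.1 and 62.4 CPM. The colours overlapped at the lower end of the bluish range. For ap_7580, the bluish trees held 32.2 to 34.6 CPM and the green trees 30.2 to 33.8 CPM. For ap_4502 the ranges were 154 to 174 CPM and 144 to 161 CPM. The logFC was 0.09 in both, and none of these differences passed the test (the FDRs of the 3 transcripts were 0.790, 0.817 and 0.817, edgeR quasi-likelihood test, Benjamini-Hochberg).

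Other lists were chosen by the SD in 1 colour and then measured in the other colour. The candidates were still those set by the mean CPM of all 12 libraries. The 200 candidates with the smallest SD among the 6 bluish trees had a median SD of 0.0459 there and of 0.127 in the 6 green trees. The other candidates had a median of 0.192 in the green trees, and 177 of the 200 chosen lay below the median of the candidates. Those chosen among the green trees had a median SD of 0.0572 there and of 0.117 in the bluish trees, against 0.172 for the others, and 167 lay below the median. A wider spread in the trees not used follows from choosing the smallest SDs and is not a result. In both directions the median SD of the chosen transcripts there was below that of the other candidates. This describes the lists chosen in 1 colour. Whether the steadiness of the 200 stable transcripts carries over to other trees was not tested, because their choice used all 12 libraries. The list chosen in bluish trees and the list chosen in green trees had 11 transcripts in common (5.5% of 200). This is a single count, the same from either side, and each list held 200 of the 12268 candidates.

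The difference was also present among transcripts of similar level. Within the candidates of 10 to 20 CPM, those chosen in bluish trees had a median SD of 0.162 in green trees against 0.212 for the others. From 100 CPM upwards the values were 0.105 and 0.180. The chosen transcripts had the lower median in all 4 ranges of level and in both directions. Of the 200 stable transcripts of all 12 trees, 52 were among those chosen in bluish trees alone and 59 among those chosen in green trees alone.

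**Figure D4:**
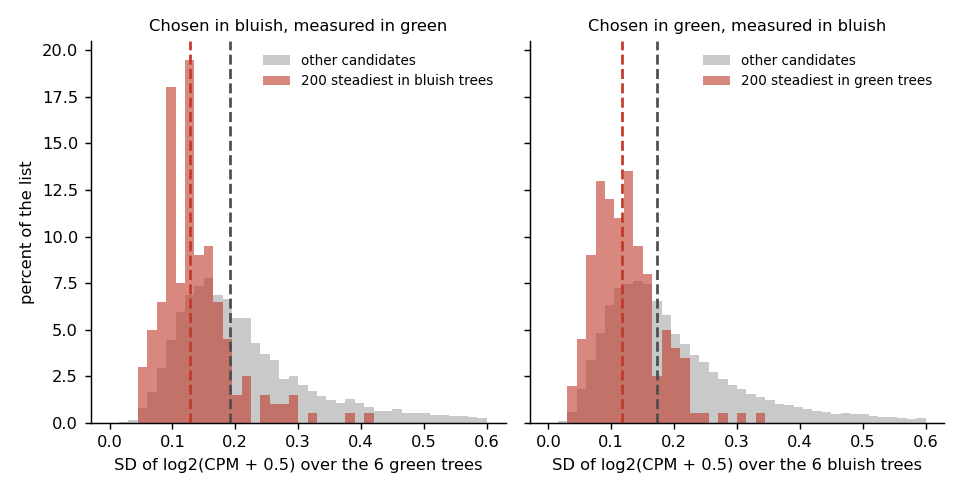
Distribution of the SD of log2(CPM + 0.5) in the colour not used for the choice (x axis, log2 units; values above 0.6 are not drawn) as percent of each list (y axis), for the 200 steadiest of the other colour (red) and the other candidates (grey), with dashed lines at the medians. Medians are 0.127 against 0.192 in green trees (left) and 0.117 against 0.172 in bluish trees (right).

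The choice was also repeated without each tree in turn, and the tree left out was then measured. Between 138 and 167 of the 200 were chosen again, the fewest without green 2 or green 5 and the most without bluish 1 or bluish 3. In the tree left out, the median absolute deviation of the chosen transcripts from their mean in the other trees was between 0.06 and 0.11 on the log2 scale, and that of the other candidates between 0.11 and 0.17. It was smaller for the chosen transcripts in each of the 12 trees. Levels were not matched in this comparison, and counting alone spreads the other candidates more (median floor 0.0461 against 0.0321 for the 200). These lists are also not the 200 themselves, whose choice used every tree, so the values are a description only. Without green 2, the transcripts chosen sat at a median of -0.10 in that tree, the farthest from 0 of the 12.

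Which transcripts belong to the 200 depended on how the libraries were scaled. With TMM-scaled CPM, 125 of the 200 were chosen again, and 117 with median-ratio (RLE) factors computed in edgeR. The lists chosen by these scalings shared 187 transcripts with each other, and 115 stable transcripts were chosen under all 3 scalings. After TMM scaling the SDs of the 200 lay between 0.0425 and 0.103 with a median of 0.0758, and 80 of the 200 became smaller. Of all the candidates, ap_7470 then had the smallest SD and ap_22102 the next, while ap_3178 took rank 31 with an SD of 0.0603.

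**Figure D5:**
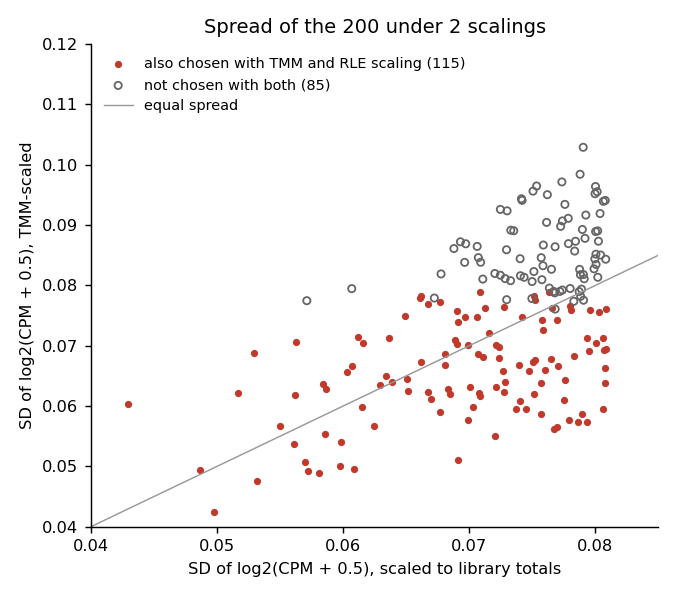
SD of log2(CPM + 0.5) over the 12 trees with CPM from the library totals (x axis) and with TMM-scaled CPM (y axis) for the 200 stable transcripts, in log2 units. Filled red points are the 115 also chosen with TMM and RLE scaling, open points are the rest, and the line marks equal spread; the open points reach an SD of 0.103 after TMM scaling.

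A core of the list was kept under every setting tried. Over 22 alternatives, 12 of them leaving out a tree and 10 changing the scaling, pseudocount, level minimum or measure of spread, 63 of the 200 were chosen each time. These included all 10 transcripts with the smallest SD and 42 of the first 50 in the order of SD, and 0 of the last 50. Leaving out trees alone kept 102 of the 200 throughout. The alternatives reused values that the rule used, and members far inside the SD limit are the least easily lost. These counts are therefore a description only.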

How the data were processed

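RNA-seq of needles from 6 bluish and 6 green trees was analysed, grouped by the library labels. The extraction protocol in the labels describes pine seedling roots, whereas labels and paper name needles, and needles were assumed. Raw counts per assembled transcript were deposited. The authors trimmed reads with SeqTrimBB, assembled them with Trinity 2.11, reduced redundancy with CD-HIT-EST, mapped with BWA MEM and counted with sam2counts, versions otherwise not given in the sources used here. Near-identical transcripts can share reads in such counts, so single levels are uncertain where copies exist. The authors' own fold changes and p-values in the supplement were not used.

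CPM used the full column totals. The spread was the SD of log2(CPM + 0.5). The quasi-likelihood test was run in edgeR 4.0.16 (limma 3.58.1, R 4.3.3) with TMM factors, colour as the only term, transcripts reaching 2 CPM in 2 or more libraries, and Benjamini-Hochberg adjustment over 23352 transcripts. DESeq2 1.42.0 and an edgeR exact test with a common dispersion were alternatives. Tables were computed with pandas 2.3.3 and numpy 2.4.6, and plots drawn with matplotlib 3.10.9, under Python 3.11.15. The scripts were tested on simulated data. The counting floor is the SD expected if read pairs follow Poisson counting, and covers counting error only. No library was a copy of another of the same colour (chi-square per degree of freedom 53.7 to 184). Libraries of different colours were not compared in this way.

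The members and lists were chosen with earlier results of these data known. Transcripts were named by rule: the 10 smallest SDs, the 5 highest mean CPM, the 3 highest and 3 lowest logFC, the 2 on each side of the limit, the annotated members, and the 3 transcripts most alike to the first. Other alternatives changed scaling, pseudocount, level minimum, measure of spread and the trees included.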

Additional observations from a re-analysis of the deposited data

Results flagged for a closer look

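In each colour, the highest and lowest tree of every named transcript, of the summed CPM of the 200 and of their median deviation were compared with the other 5 trees by the gap to the nearest of them relative to the whole range (Dixon's criterion for 6 values), and 5 of 76 groups of trees held a tree that stood apart. Chance flags about 1 in 20 such groups. The most abundant of these transcripts, ap_7046, did so in both colours, with 306 CPM in bluish 2 against 326 to 337 CPM in the other bluish trees, and with 357 CPM in green 6 against 311 to 324 CPM in the other green trees. Green 2 stood apart in a pair of transcripts in opposite directions: ap_157 measured 24.0 CPM there against 21.0 to 21.9 CPM in the other green trees, and ap_95 measured 41.6 CPM against 48.7 to 50.7 CPM. Just outside the limit, ap_3971 measured 26.8 CPM in bluish 3 against 31.0 to 32.2 CPM in the other bluish trees.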

How the results depend on the processing

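No stable transcript was DE (0 of 200) under any alternative run, whereas the number of DE transcripts over all tested depended on the test. It was 1 with the quasi-likelihood test, 22 with DESeq2 (7 higher in bluish, 15 higher in green), 457 with the exact test at a common dispersion (173 and 284) and 3 with edgeR's filterByExpr. Leaving out single trees gave 1 to 2, with 2 without bluish 4 and 2 without green 6. The tree number as a replicate block gave 0 DE transcripts, with 1428 at an unadjusted p under 0.05; trees of the same number share only the number (correlations of their deviations -0.136 to 0.109, 1 of 6 bluish trees correlating best with its own number), and the block changed no call among the 200. Stable transcripts with an unadjusted p under 0.05 numbered 2 of 200 with DESeq2, both higher in green trees. Without single trees they numbered 0 to 1, with 1 without bluish 1 and 1 without bluish 5. In the main quasi-likelihood test they numbered 0 of 200, against 6.33% of all tested. The shares of all transcripts under the other settings are not given here. No lean towards a colour is therefore read from these few transcripts. Of the 200, 125 were chosen again after TMM scaling, 117 after RLE scaling and 138 to 167 without single trees. For the list chosen with the counting variance subtracted, the median SD left after that subtraction was 0.0626. It is another measure than the SD itself and is not comparable with it. The median SD over the trees kept was 0.0694 to 0.0745 for the lists chosen without single trees. Of the 684 values of logFC of the named transcripts under alternatives, 0 moved by 1 SD of the log2 levels, and 30, in 8 transcripts whose logFC was at most 0.02 in size and not called, had the other sign. Scaling to the summed counts of the 200, an alternative chosen after seeing the data, gave 1 DE transcript. Causes of these changes were not tested.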
